A study of Mus musculus with 4 samples.

Results

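The genes described here are 9 regulators of apoptosis, the programmed death of single cells: the Bcl-2 family genes Bax, Bak1, Bcl2, Bcl2l1, Mcl1, Bid and Bcl2l11, the death receptor Fas and the initiator caspase Casp8. They were chosen by name, and every probe set that the platform annotation ties to exactly 1 of them was used. A probe set is a group of short oligonucleotides that reads 1 or more transcripts. That gave 22 probe sets for 8 of the 9 genes, out of 22626 probe sets and 12393 named genes in all. Bax was not analysed here, as no named probe set carried its symbol.

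Total RNA from mouse mitral valve was measured on 4 single-colour arrays, 1 from Fbn1 +/+ mice (WT), 2 from heterozygotes labelled Fbn1 C1039/+ (Het, with the arrays called Het1 and Het2) and 1 from homozygotes labelled Fbn1 C1039G/C1039G (Hom). Fbn1 encodes fibrillin-1, the main protein of extracellular microfibrils, and mutations in it cause Marfan syndrome. The Het labels name the changed residue without its substitute. No treatment is named, and the labels do not give age, sex, the genetic background or whether an array held 1 animal or a pool, so p-values measure only the spread between these arrays.

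Cells decide between survival and apoptosis largely at the mitochondrial outer membrane. Bcl2, Bcl2l1 (Bcl-xL) and Mcl1 protect that membrane, Bak1 and Bax perforate it, and Bid and Bcl2l11 (Bim) are triggers that bind both sides. Fas, a receptor on the cell surface, starts a second route by activating Casp8, which can cut Bid and so join both routes. In heart valves, cell death accompanies the remodelling of the leaflets during development, and cell death has been reported to change in mutant fibrillin-1 valves.

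No member passed the test in any comparison. In limma's test with Benjamini-Hochberg adjustment, 0 of the 10 member probe sets tested were called for Het against WT, Hom against WT or Hom against Het, as were 0% of all 11313 probe sets tested in each comparison. An unadjusted p under 0.05 was reached by 0 members and by 1.02%, 0.486% and 0.796% of all probe sets, in that order. The spread came from the Het pair alone, with 1 residual degree of freedom, and the lone WT and Hom arrays were assumed to vary like it. The eBayes step of limma drew the spread of each probe set toward a value shared by all probe sets tested. For Het against WT, Bcl2l1 1420888_at, with its Het arrays 0.04 log2 units apart, thus had an SE of 0.49. Mcl1 1437527_x_at, with its Het arrays 0.92 apart, had an SE of 0.53. The SE of a member's log2 difference was therefore wide, between 0.49 and 0.54 for Het against WT and between 0.56 and 0.62 for Hom against WT. The values below are given as measured, and differences of this size could not be told from the spread between arrays.

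Values are intensities after scaling the arrays to a shared median, listed as WT, Het1, Het2 and Hom. Valve interstitial and fibroblast markers (10 of 10) and endothelial markers (8 of 8) were bright enough to be tested, as were 13 of 13 cardiomyocyte markers, so the tissue held muscle too. Het2 stood apart. Its summed macrophage markers read 9043, against 4182 to 4974 on the other arrays, and 13 of 14 of them were above Het1. Its summed cardiomyocyte markers read 23640, against 42153 to 53436, but 2 of the 13 were above Het1. Of these, Myl7 read 3041 in Het2, against 1271 to 1622 on the other arrays. Myl4 read 1818 in Het2, against 1916 in WT, 1417 in Het1 and 1138 in Hom. The summed valve interstitial and fibroblast markers read 63335 in WT, 53218 in Het1, 41158 in Het2 and 51513 in Hom, highest in WT and lowest in Het2. Not every gene followed this order. Postn, Dpt and Mfap5, 3 of the 10, were higher in Het2 than in Het1, and Dcn was highest in Het1, at 14137 against 13529 in WT. The summed markers of platelets (5 genes) were higher in both Het arrays, at 2222 and 4138, than in WT and Hom, at 1241 and 1081. Those of erythroid cells (3 genes) were higher in Het2, at 3040, than on the other arrays, at 1062 to 1311. Most of the erythroid sum was Alas2, at 2579 in Het2. Slc4a1 was also highest there, but Hba-a1, too dim to be tested, read 38.4 in Het1 and 31.1 in Het2. Of 9 lymphocyte markers 0 were bright enough to be tested. The Actb 3' to 5' ratio, which gauges RNA integrity, was 3.04 in Het2 and 2.16 to 2.25 elsewhere. After centring, the median probe set lay 0.18 log2 units above WT in Het2, against -0.07 without centring and -0.01 with quantile normalization. The part of these differences in the members' values was not tested. In this bulk tissue fewer cells of a type and less RNA per cell cannot be told apart.

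The 250 bases before the transcription start are shown for the members with a tested probe set that read above WT in both Het arrays, Bcl2l1, Casp8 and Mcl1. Mcl1 entered through 1448503_at alone of its 6 probe sets, and there Het2 read below WT without centring and with quantile normalization. They come from RefSeq on GRCm38.p6, each read 5' to 3' on the strand of the gene, and for Bcl2l1, with 3 listed starts, the start farthest upstream was taken. Capitals mark matches on either strand to the GC box GGGCGG, the CCAAT box CCAAT, the TATA box TATAAA, the E-box CACGTG or the AP-1 site TGANTCA.
Bcl2l1, chr2:152831729-152831978, minus strand: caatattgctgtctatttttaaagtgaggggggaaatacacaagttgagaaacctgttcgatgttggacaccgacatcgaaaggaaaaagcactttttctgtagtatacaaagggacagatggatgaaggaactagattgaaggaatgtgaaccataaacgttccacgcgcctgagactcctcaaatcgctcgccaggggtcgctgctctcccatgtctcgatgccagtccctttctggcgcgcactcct
Casp8, chr1:58802252-58802501, plus strand: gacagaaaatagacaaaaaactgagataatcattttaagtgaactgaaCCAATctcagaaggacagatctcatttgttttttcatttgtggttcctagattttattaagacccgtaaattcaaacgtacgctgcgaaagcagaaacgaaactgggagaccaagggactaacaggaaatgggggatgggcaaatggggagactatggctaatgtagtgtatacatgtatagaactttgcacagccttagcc
Mcl1, chr3:95658471-95658720, plus strand: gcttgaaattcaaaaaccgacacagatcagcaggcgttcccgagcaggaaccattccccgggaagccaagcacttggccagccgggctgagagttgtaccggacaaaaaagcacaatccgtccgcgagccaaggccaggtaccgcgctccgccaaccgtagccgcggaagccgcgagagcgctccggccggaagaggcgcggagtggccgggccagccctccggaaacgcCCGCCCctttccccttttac

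These 3 windows differed in composition. The Mcl1 window was 64.4% G and C and held 1 GC box, a motif found in 32.7% of all 32851 promoter windows of this length. The Casp8 window was 39.6% G and C and held 1 CCAAT box, as 33.8% of all windows did. The Bcl2l1 window was 47.6% G and C and held none of the 5 motifs, nor did the windows at its other starts. The median over all windows was 52.4%. TATA boxes occurred in 12.4%, E-boxes in 6.02% and AP-1 sites in 6.75% of all windows. A match is a string of letters and not a measured binding site.

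Bcl2l1, which encodes the survival protein Bcl-xL, gave the most even reading of the Het pair among the members above WT. Its bright probe set, 1420888_at, read 295.1 in WT, 402.1 in Het1, 412.3 in Het2 and 338 in Hom. All 3 mutant arrays read above WT and both Het arrays above Hom, but quantile normalization put Het2 below Hom, at 0.17 and 0.24 above WT. The Het arrays lay 0.04 log2 units apart, while 95.1% of all tested probe sets were farther apart or as far. Het against WT was 0.46 log2 units (SE 0.49, limma adjusted p = 1), or 1.38-fold, and higher in 2 of 2 Het arrays. Of all tested probe sets, 20% lay at least as far from WT in Het1 and 38.4% in Het2. Hom against WT was 0.20 (SE 0.56, limma adjusted p = 1) and Hom against Het -0.27 (SE 0.49, limma adjusted p = 1), which shrank to -0.08 after quantile normalization and -0.12 as deposited. The closeness of the Het pair came with the centring, since Het2 lay 0.24 above WT without centring and 0.17 with quantile normalization, while Het1 lay 0.47 and 0.48 above it. The other 3 Bcl2l1 probe sets were dim. Of these, 1420887_a_at read 10.3, 44.5, 4.2 and 26.7, so that Het1 and Hom lay above the floor of 19.0 and WT and Het2 below it. Probe set 1426050_at read 20.7, 14.8, 20.5 and 16.2, with WT highest, and 1426191_a_at was below the floor on every array.

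**Figure D1:**
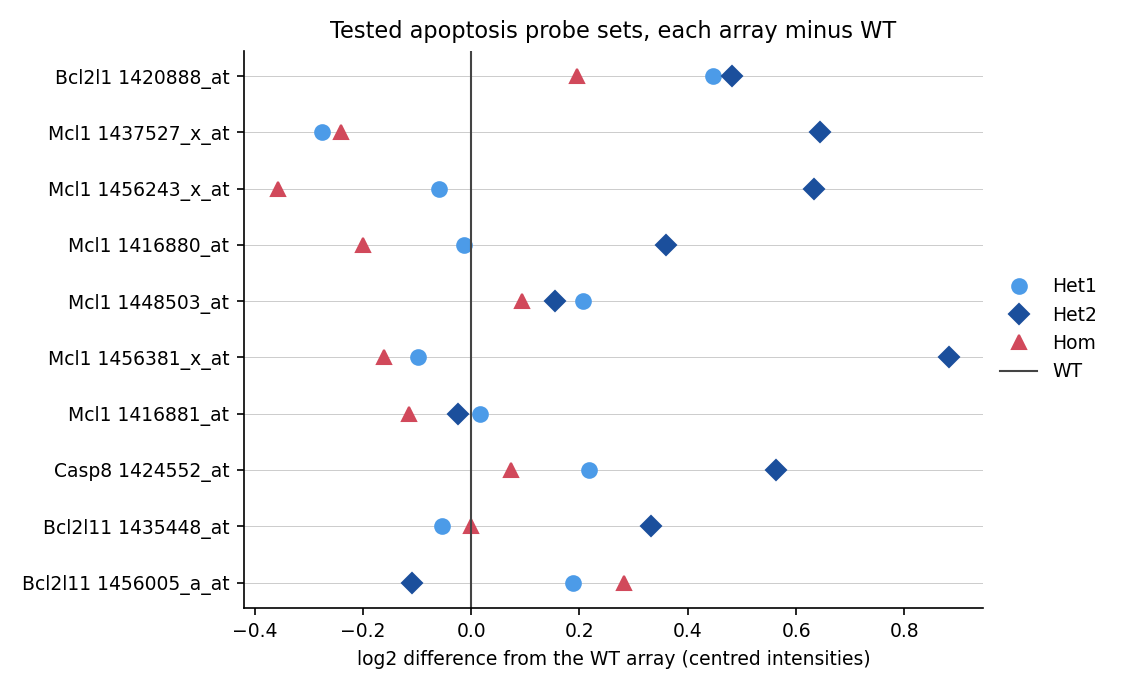
Log2 difference from the WT array (horizontal axis) for the 10 apoptosis probe sets tested, with circles for Het1, diamonds for Het2, triangles for Hom and a vertical line for WT. For Bcl2l1 the Het symbols nearly coincide at 0.45 and 0.48, whereas for the _x_at probe sets of Mcl1 only Het2 lies to the right of WT, by 0.63 to 0.88.

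Mcl1, a short-lived survival protein of the same family, was read by 6 probe sets that disagreed. The 3 whose names end in _x_at, a suffix for sets holding probes that can also bind other transcripts, were highest in Het2. Probe set 1437527_x_at read 1309, 1082, 2045 and 1109, and 1456243_x_at read 919.4, 882.9, 1426 and 717.8. Probe set 1456381_x_at read 331.2, 309.5, 610.7 and 296.1. On all 3 Het2 was the highest array, by 0.69 to 0.98 log2 units above Het1, and WT came next. The Hom reading of 1456243_x_at was 0.36 log2 units below WT.

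The 3 remaining Mcl1 probe sets, which end in _at, were flatter. Probe set 1416880_at read 565.3, 560.2, 725.3 and 492, with Het2 again highest but by 0.37 above Het1. Probe set 1448503_at read 520.6, 600.5, 579.5 and 555.4, with all mutant arrays above WT, although Het2 lay below WT in other scalings, at -0.17 after quantile normalization and -0.08 as deposited. Probe set 1416881_at read 167.7, 169.5, 165 and 154.8, within 0.13 log2 units over the 4 arrays. Het against WT ran from -0.004 to 0.39 over the 6 probe sets, Hom against WT from -0.36 to 0.09 and Hom against Het from -0.64 to -0.09, with a limma adjusted p of 1 for each; Hom against Het turned above 0 for 1448503_at after quantile normalization and with the scaling as deposited, and for 1416881_at with the latter. Without Het2, the Het difference from WT of the 3 _x_at probe sets was -0.28 to -0.06.

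A difference between the suffixes was also present over all probe sets, where it was not tested. The median of 957 tested _x_at probe sets lay 0.50 log2 units higher in Het2 than in Het1, and 77.4% of them were higher there. The median of 7194 tested _at probe sets lay 0.13 higher, with 59.3% higher. Of the Mcl1 probe sets, 1437527_x_at was farther apart between the Het arrays than most, as 14% of all tested probe sets were at least as far apart; for 1456381_x_at the share was 12%. With the scaling as deposited the _x_at probe sets of Mcl1 still read 0.43 to 0.72 higher in Het2 than in Het1, and the _at probe sets -0.31 to 0.12. The medians by suffix were taken after centring only. Over all tested probe sets the median of Het2 minus Het1 was 0.18 after centring and -0.08 as deposited.

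**Figure D2:**
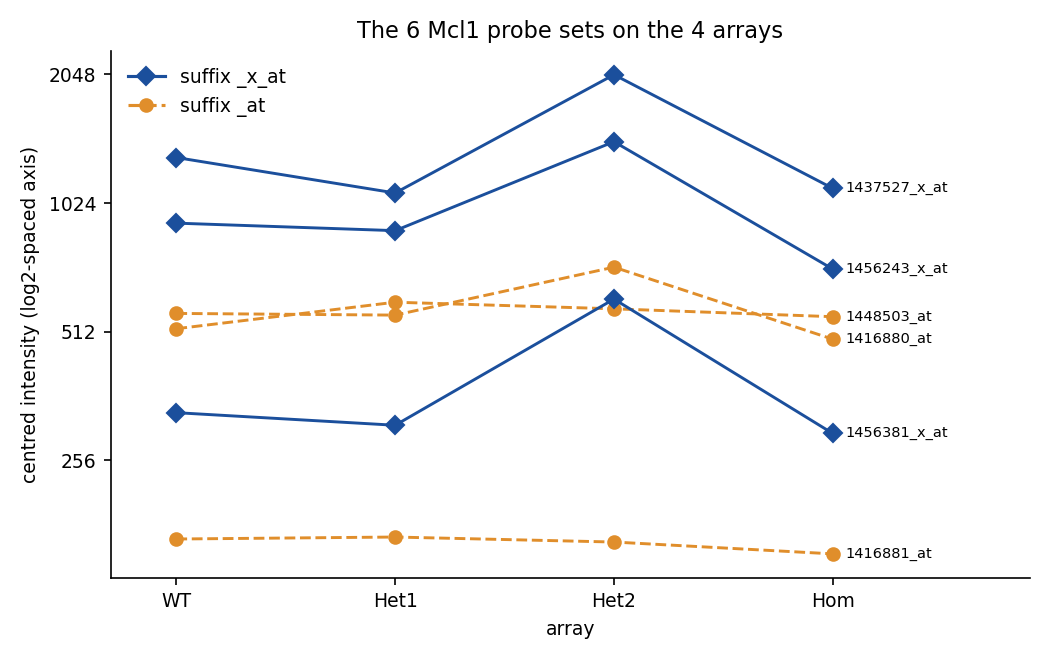
Centred intensity on a log2-spaced axis (vertical) of the 6 Mcl1 probe sets on the 4 arrays (horizontal), with solid lines and diamonds for names ending in _x_at and dashed lines and circles for names ending in _at. Lines join the values of 1 probe set. The 3 solid lines peak at Het2, at 610.7, 1426 and 2045, while of the dashed lines only that of 1416880_at has a peak there, at 725.3.

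Bcl2, the founding survival gene of the family, was too dim to be tested, since its mean intensity of 55.4 was under the level of 62.6 that a probe set had to reach. Its only probe set read 50, 64.3, 38.4 and 68.7. The Het arrays lay on opposite sides of WT and were 0.74 log2 units apart, farther than Hom lay from WT (0.46).

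Bak1, a pore-forming effector, was also dim. Probe set 1418991_at read 38.6, 35.5, 26.3 and 29.8, with WT highest and Het2 lowest. The Hom array lay 0.37 log2 units below WT, and the Het arrays were 0.43 apart. The other Bak1 probe set was at or below the floor on every array.

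Bcl2l11, which encodes the trigger protein Bim, gave opposite orders in its 2 tested probe sets. Probe set 1435448_at read 224.2, 216.1, 282.2 and 224.3, with Het2 alone above the others. Probe set 1456005_a_at read 198.1, 225.6, 183.7 and 240.8, with Het2 lowest and Hom highest. Hom against WT was 0.0004 (SE 0.57, limma adjusted p = 1) by the first and 0.28 (SE 0.57, limma adjusted p = 1) by the second. Het against WT was 0.14 and 0.04, values that turn to -0.0005 and -0.05 after quantile normalization. Of the other 3 probe sets, 1435449_at read 42.2, 37.9, 30.9 and 43.7, and 1456006_at read 13.1, 31.6, 24 and 19.2. The last, 1426334_a_at, was below the floor on every array.

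Bid, the trigger that Casp8 can cut, read 28.3, 21.1, 40.3 and 10.7 by probe set 1417045_at. The Het arrays lay on opposite sides of WT, 0.93 log2 units apart, and Hom was below the floor, which makes its reading at least 1.49-fold lower than WT. This is 1 dim probe set on 1 Hom array and was not tested. The other Bid probe set stayed below the floor on every array.

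Fas, the death receptor, was read by 1 probe set, at 6.2, 5.5, 16.7 and 30.7. Hom was the only array above the floor, at least 1.61-fold above WT when the floor stands in for WT. This difference too rests on 1 array at a dim level, and no test was made of it.

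**Figure D3:**
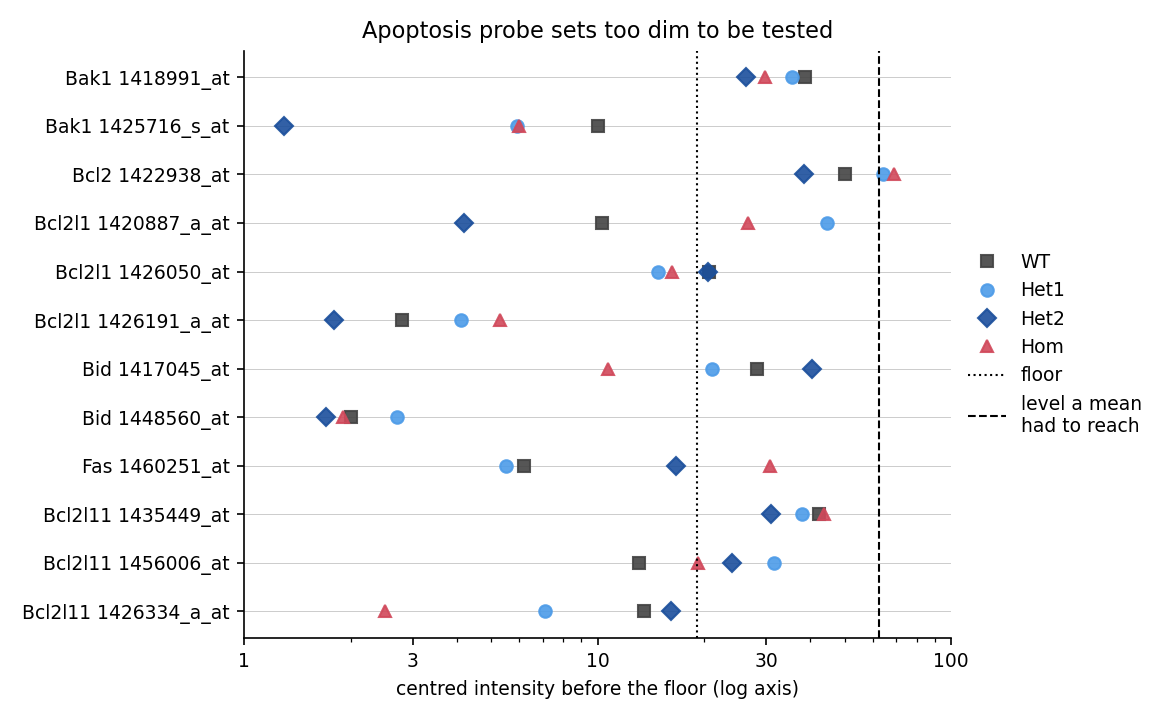
Centred intensity before the floor, on a log axis (horizontal), of the 12 apoptosis probe sets too dim to be tested, with squares for WT, circles for Het1, diamonds for Het2 and triangles for Hom. The dotted line is the floor of 19.0 and the dashed line the mean intensity of 62.6 that a probe set had to reach. For Fas only the Hom triangle lies right of the dotted line, and for 4 probe sets no symbol does.

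Casp8, the initiator caspase of the death receptor route, read 179.2, 208.3, 264.7 and 188.5. All 3 mutant arrays read above WT, with Het2 highest, and Hom lay only 0.07 log2 units above WT. Het against WT was 0.39 log2 units (SE 0.49, limma adjusted p = 1), or 1.31-fold, and higher in 2 of 2 Het arrays. The value was 0.22 in Het1 and 0.56 in Het2, a difference of 0.35. With quantile normalization Het against WT was 0.27 and the Het arrays lay 0.11 apart, and as deposited 0.28 and 0.09. Hom against Het was -0.32 (SE 0.49, limma adjusted p = 1), and -0.18 and -0.17 in those settings. The summed macrophage markers were also highest in Het2, and their part in the Casp8 reading was not tested.

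Among the 10 tested probe sets, 6 of them from Mcl1, Het2 was most often the highest array. It was the highest of the 4 arrays at 7 of 10, where it was highest at 49.9% of all tested probe sets; with the scaling as deposited these were 6 of 10 and 30.7%. Of the 10, 3 read at least 1.5-fold above WT in Het2, all of them _x_at probe sets of Mcl1, where 21.4% of all probe sets did; after quantile normalization 0 did, against 10.9% of all, and as deposited 1 did, against 10.1%. In Het1 and in Hom 0 of 10 were 1.5-fold from WT in either direction, against 11.1% and 7.59% of all. At 3 of 10 both Het arrays read above WT, against 33.8% of all probe sets, and at 0 both read below, against 21% of all. Hom was the lowest array at 4 of 10, all of them probe sets of Mcl1, against 26.2% of all probe sets. At 0 of 10 did both Het values fall between those of WT and Hom, against 7.65%.

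The median member difference from WT was 0.001 log2 units in Het1, 0.42 in Het2 and -0.06 in Hom. The medians over all tested probe sets were -0.005, 0.18 and -0.03. At a 2-fold limit 0 of 10 members differed between any array and WT, or between the Het arrays, where 2.08% of all probe sets did for Het1, 7.94% for Het2, 1.22% for Hom and 11.3% between the Het arrays. The median of Hom against the mean of the Het arrays was -0.29, against -0.11 over all probe sets, and it was -0.12 when Het2 was left out. This member median was -0.14 without the _x_at probe sets, all of them from Mcl1, -0.13 after quantile normalization and -0.14 with the scaling as deposited.

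By distance between log2 profiles over the 4 arrays, each less its own mean, the named genes nearest to Mcl1 (1437527_x_at) were Dap, Txn1 and Dkk3, at distances of 0.04, 0.04 and 0.05. Nearest to Casp8 were Vta1, Sec13 and Ier3ip1, at 0.02, 0.03 and 0.04. Nearest to Bcl2l1 were Pafah1b3, Capza2 and Sfrp4, at 0.03, 0.04 and 0.05. With 4 arrays and 7307 genes compared, close profiles are common.

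The remaining pathway was described with 6 lists holding 70 other genes, of which 60 had a probe set and 44 were bright enough to be tested, each by its brightest probe set. In limma's test 0 of the 44 were called in any comparison. Both Het arrays read above WT at 24 of 44 genes and below it at 4, where 35.4% and 20.9% of all 7308 named genes tested did. In Het1 alone 29 of 44 (65.9%) read above WT, against 49.6% of all genes, and in Hom 27 of 44 (61.4%), against 46.8%. With the scaling as deposited 18 of 44 genes were above WT in both Het arrays, against 27.1% of all, and in Hom 30 of 44, against 52.8%. All of these shares rest on the same WT array and are no evidence of each other. The filter acted on the mean of the 4 arrays, for listed genes and all genes alike. A gene dim in WT could therefore pass it through brighter mutant arrays.

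The other Bcl-2 family genes gave 7 tested members, with 5 above WT in both Het arrays, 0 below in both and 7 of 7 above WT in Hom, at medians of 0.41, 0.48 and 0.23 log2 units in Het1, Het2 and Hom. Among these 7, Hrk read 54.5, 97.8, 75.8 and 82.2, so it passed the filter only through the mutant arrays. Its Hom difference from WT, 0.59, was the highest of this list. With the scaling as deposited 4 of 7 Bcl-2 family genes were above WT in both Het arrays and 7 of 7 in Hom. Their medians were then 0.42, 0.24 and 0.27, against 0.02, -0.05 and 0.02 over all named genes. The 8 tested p53-linked genes gave 5 above in both Het arrays and 0 below, and 6 of 8 above in Hom. The 7 tested death receptor genes gave 5 above and 1 below, the 9 mitochondrial genes 4 above and 2 below, the 4 caspases 2 above and 1 below, and the 9 inhibitors of apoptosis 3 above and 0 below. In Hom 4 of 7 death receptor genes, 5 of 9 mitochondrial genes, 2 of 4 caspases and 3 of 9 inhibitors read above WT. Of the mitochondrial genes, Endog read 49, 35.3, 101 and 78.7, so it passed the filter only through Het2 and Hom. For the inhibitors the Hom count became 6 of 9 as deposited and likewise when quantile-normalized. In these 2 settings both Het arrays were above WT at 4 of 8 p53-linked genes, 4 of 7 death receptor genes and 1 of 9 mitochondrial genes, and the mitochondrial median in Het2 turned from 0.15 to -0.09 and -0.01.

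Tnfrsf12a, the receptor of the cytokine TWEAK, was the highest listed gene in Het. It read 253.5, 438.4, 778.7 and 340.8, with all mutant arrays above WT and Het2 well above the rest. Het against WT was 1.20 log2 units (SE 0.52, limma adjusted p = 1), or 2.30-fold, and its other probe set gave 0.79. Aen, a nuclease induced by p53, came next in Het, at 135.2, 252.8, 210.7 and 205, where every mutant array exceeded WT (0.77 for Het and 0.60 for Hom). Its other probe sets were too dim to be tested.

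Bag3, a co-chaperone that favours survival, was highest in Hom, at 75.6, 96.4, 105.2 and 132.9, a difference of 0.81 log2 units from WT. All 3 mutant arrays exceeded WT. At the low end, Daxx, a protein that binds Fas, read 292.1, 231.8, 241 and 222.4, with WT highest. Cycs, the cytochrome c released from mitochondria, read 2367, 2228, 1610 and 1673 by its brightest probe set, with a Hom minus WT difference of -0.50, but its other probe sets gave -0.19 and -0.01. Trp53inp1, a p53-induced stress gene, read lowest on the Hom array, at 224.7, 241.7, 287.7 and 148.2, whereas its other probe set, too dim to be tested, read 20.6, 9.4, 22.6 and 28.8, highest in Hom.

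Api5, an inhibitor of apoptosis, was the only listed gene 2-fold from WT in Hom. Its brightest probe set, 1437593_x_at, read 1013, 468.3, 1097 and 436.4, so that WT and Het2 were high and the other two arrays low. Its other tested probe set, 1415813_at, read 203.5, 320.4, 275.5 and 219.8, with WT lowest. The probe sets therefore gave opposite signs for Hom against WT, at -1.21 and 0.11.

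**Figure D4:**
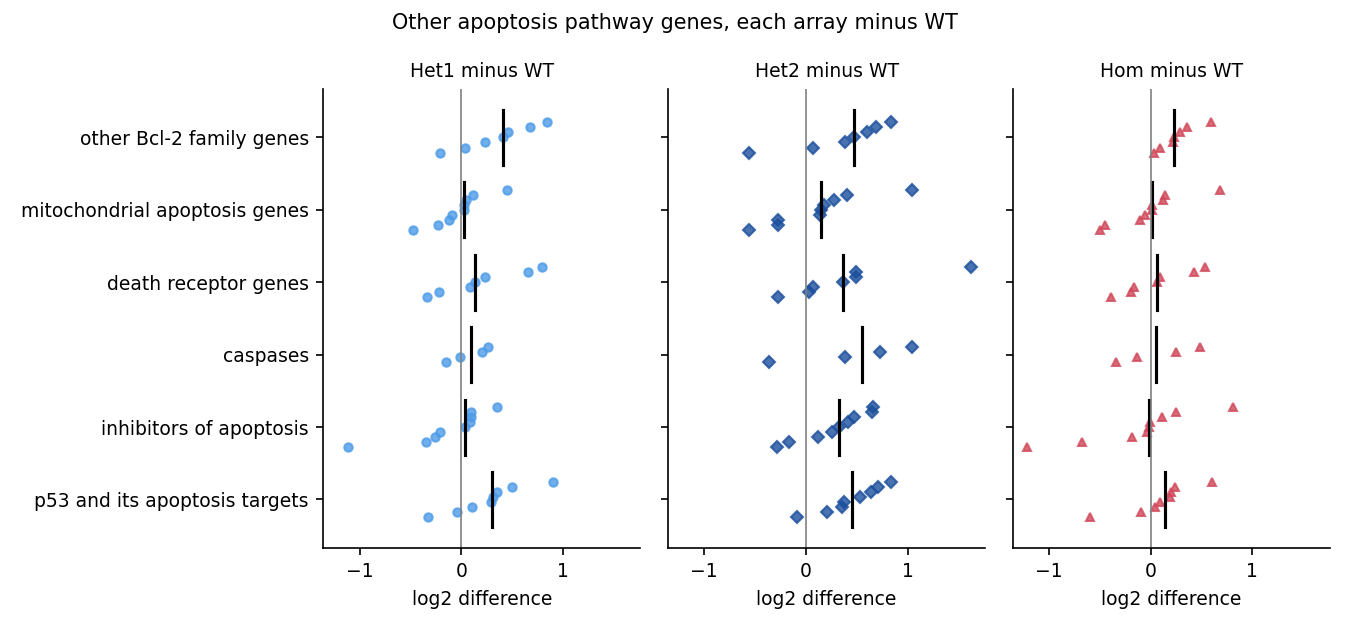
Log2 difference from WT (horizontal axis) of the 44 listed genes tested, by list (vertical axis), in Het1 (circles), Het2 (diamonds) and Hom (triangles); black bars are list medians. The median of the other Bcl-2 family genes lies right of WT on each array, at 0.41, 0.48 and 0.23. The medians over all named genes tested, not drawn, are -0.003, 0.19 and -0.02. The point at 1.62 in the middle panel is Tnfrsf12a.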

How the data were processed

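The authors deposited linear-scale intensities, 1 per probe set and array; the software behind them is not given in the sources used here. Their trimmed mean, with 2% left out at each end, was 150.1 on each array. Arrays were centred on their common median, given a floor of 19.0, the 25th percentile, and log2 transformed, so folds that involve a value at the floor are lower bounds. Of 22690 probe sets 64 were controls and left out; 20393 had 1 gene symbol in the platform annotation, 691 several and 1606 none, and 20364 of the probe sets with 1 symbol were matched to RefSeq by gene identifier. Probe sets with a mean over the 4 arrays of at least 62.6, the median, were tested: 11313.

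All 4 arrays entered 1 limma 3.58.1 fit of 3 groups in R 4.3.3 (lmFit, eBayes, Benjamini-Hochberg over all probe sets tested, threshold 0.05). The fit was tested on simulated data with changes of 4-fold and 8-fold put in for Het against WT. It recovered most of them, but a larger share of its calls were false than the threshold allows. The noise was taken from the differences between Het1 and Het2 and shuffled over probe sets, so these shares need not hold for the data. Smaller changes were not simulated, and no tested member lay 2-fold from WT on any array. The number of arrays limits the precision. The Het arrays shared identical values at 82 probe sets and are not duplicates.

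Every member probe set was reported. Of the pathway lists, the genes named were those called, those 2-fold from WT in both Het arrays or in Hom, and the 2 highest and 2 lowest for Het and for Hom among genes whose Het values lay on 1 side of WT. Members and lists were chosen with earlier results of these data known. Alternatives were quantile normalization, the scaling as deposited, other filters, no floor, 1 probe set a gene, leaving out each Het array, other eBayes settings and fits of 2 groups; leaving out the _x_at probe sets and subtracting the overall median were added after seeing the data. Plots were made in Python 3.11.15 with matplotlib 3.10.9.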

Additional observations from a re-analysis of the deposited data

How the results depend on the processing

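No paired analysis was possible because WT and Hom have 1 array each and replicate numbers occur only within Het. No member was called by limma under any setting that gave a test, and the limits are the number of arrays and the dim signal of 12 of the 22 member probe sets.

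For Het against WT limma called 1 probe set after quantile normalization and 1 with the filter at the 75th percentile, in both cases Ppbp, a platelet chemokine named after its values were seen, and 0 in the main setting, where the lowest adjusted p was 0.231. Signs turned for these members. For Hom against Het, Mcl1 1448503_at became 0.12 after quantile normalization and 0.0629 with the scaling as deposited, Mcl1 1416881_at 0.0382 with the scaling as deposited, and Bcl2l11 1435448_at 0.00295 and 0.0108 in these settings. For Het against WT, Bcl2l11 1435448_at became -0.000487 after quantile normalization, and Bcl2l11 1456005_a_at -0.0546 and -0.0702 in these settings. Without Het2, Het against WT turned for Mcl1 1437527_x_at (range -0.276 without Het2 to 0.644 without Het1), 1456243_x_at (-0.0584 to 0.633), 1416880_at (-0.0130 to 0.360) and 1456381_x_at (-0.0977 to 0.883), and for Bcl2l11 1435448_at (-0.0532 to 0.332); near 0 it turned for Mcl1 1416881_at (0.0155 without Het2, -0.0234 without Het1). Without Het1 it turned for Bcl2l11 1456005_a_at (-0.109, and 0.188 without Het2). Hom against Het turned without Het2 for Mcl1 1437527_x_at (0.0358, and -0.883 without Het1) and Bcl2l11 1435448_at (0.0536 and -0.332). The cause was not tested.

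The counts of probe sets 2-fold apart moved with the number tested and the limit. With no filter they were 899 for Het1 and WT, 1753 for Het2 and WT, 716 for Hom and WT, and 2242 between the Het arrays. With the filter at the 75th percentile they were 55, 403, 31 and 653. With 1 probe set a gene they were 141, 539, 77 and 704, and at a 1.5-fold limit 1254, 3346, 859 and 3780. Without the floor they were 152 for Het1 and 79 for Hom. Of the probe sets 2-fold from WT in Het2, 71.6% were higher, against 34.9% as deposited and 46.5% after quantile normalization; for Hom 47.8% were higher, against 56.4% as deposited.

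The median member difference of Het from WT was 0.18, and it was 0.42 without Het1, 0.001 without Het2, 0.05 after quantile normalization and 0.17 without the _x_at probe sets. For Hom against WT the median was -0.06, and 0.07 without the _x_at probe sets. For Hom against Het it was -0.29, and -0.14 without the _x_at probe sets.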

Other observations

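Besides the member Casp8, the 4 listed caspases bright enough to be tested are given, each by its brightest probe set. Outside the rule for named genes they were chosen after their values were seen. Casp6, an executioner caspase, read 519.5, 467.5, 859.5 and 409.3, with Het2 highest and Hom lowest. Casp4, an inflammatory caspase, read 80.1, 95.8, 164.9 and 112.3, with every mutant array above WT. Casp12, linked to stress of the endoplasmic reticulum, read 226.8, 260.4, 294.9 and 269.8, again with WT lowest. Casp2 read 575.4, 569.7, 447.9 and 523.4, with Het2 lowest. None passed limma's adjusted threshold in any comparison.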
